A study of Mus musculus with 9 samples.

Results

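The *HoxB* cluster holds the genes *Hoxb1* to *Hoxb9* and *Hoxb13*, and RING1B binding along it was described from the peaks that the authors assigned to 1 of these 10 genes as nearest gene. The rule took 18 peaks of 4157 in the 2 deposited lists, 15 of 2347 in Eed+/+ mouse embryonic stem cells (mESCs) and 3 of 1810 in Eed-/- mESCs. All 18 lay in 1 interval of chromosome 11, from 96037704 to 96229570 (mm9), and neither list had a peak with another nearest gene in it. RING1B is the catalytic subunit of PRC1, and chromatin of both genotypes, in cells of the strain C57BL/6, was immunoprecipitated with an antibody to it and sequenced. The Eed+/+ list came from 1 sample and the Eed-/- list from 1 peak call over 3 samples that the labels number as replicates and the paper describes as lanes, so no value has a replicate error and no difference between the genotypes was tested. Cells without EED, a core subunit of PRC2, lack H3K27me3. The files analysed here hold no RNA measurements, so stem cell markers could not be checked from them. Mapped tags were 4.18 times as many for Eed-/- as for Eed+/+. The totals behind this factor were taken from the text of the paper, since the lists do not give them. A level is therefore given as tags per kb of peak per 1000000 mapped tags, without subtraction of input, and its 95% Poisson interval covers counting error only.

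HOX proteins are homeodomain transcription factors that set segment identity along the head to tail axis, and the genes of a cluster are activated in the order of their position, with the gene at the *Hoxb1* end first and most anterior. In mESCs the clusters are silent, and they are among the classic targets of Polycomb repression. PRC1 monoubiquitylates histone H2A and PRC2 methylates H3K27, and both concentrate at CpG islands, which are stretches rich in unmethylated CG dinucleotides.

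To show what RING1B lay on, the 300 bp around peak summits (the position of most tags in a peak) are given in mm9, on the + strand, with CG dinucleotides in capitals. The first 3 are the only sites called in Eed-/- mESCs, and the last 2 are Eed+/+ sites without an Eed-/- peak, chosen for the highest level (*Hoxb2*) and the end of the cluster (*Hoxb1*). The summits of all 5 lay in coding exons. The *Hoxb6* window was moved by 72 bp to begin after the untranslated exon sequence.
Hoxb7, Eed-/- peak, chr11:96148262-96148561: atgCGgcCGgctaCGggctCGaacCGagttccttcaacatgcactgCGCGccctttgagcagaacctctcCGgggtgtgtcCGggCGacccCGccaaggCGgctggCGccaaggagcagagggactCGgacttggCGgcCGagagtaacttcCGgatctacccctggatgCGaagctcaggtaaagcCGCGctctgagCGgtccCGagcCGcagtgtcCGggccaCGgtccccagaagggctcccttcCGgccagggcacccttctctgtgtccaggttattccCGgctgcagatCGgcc
Hoxb6, Eed-/- peak, chr11:96160491-96160790: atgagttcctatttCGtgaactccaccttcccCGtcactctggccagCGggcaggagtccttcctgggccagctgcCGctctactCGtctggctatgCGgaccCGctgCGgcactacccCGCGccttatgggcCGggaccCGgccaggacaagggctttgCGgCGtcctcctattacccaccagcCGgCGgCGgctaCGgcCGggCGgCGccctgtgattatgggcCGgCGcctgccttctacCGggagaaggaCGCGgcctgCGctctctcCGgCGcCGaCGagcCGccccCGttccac
Hoxb5, Eed-/- peak, chr11:96165070-96165369: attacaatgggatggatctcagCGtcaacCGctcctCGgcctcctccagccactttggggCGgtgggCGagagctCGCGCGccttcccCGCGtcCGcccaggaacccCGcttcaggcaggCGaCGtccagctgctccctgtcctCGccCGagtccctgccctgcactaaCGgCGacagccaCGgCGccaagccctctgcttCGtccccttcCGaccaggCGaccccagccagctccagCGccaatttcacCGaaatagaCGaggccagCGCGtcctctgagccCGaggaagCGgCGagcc
Hoxb2, Eed+/+ peak, chr11:96214450-96214749: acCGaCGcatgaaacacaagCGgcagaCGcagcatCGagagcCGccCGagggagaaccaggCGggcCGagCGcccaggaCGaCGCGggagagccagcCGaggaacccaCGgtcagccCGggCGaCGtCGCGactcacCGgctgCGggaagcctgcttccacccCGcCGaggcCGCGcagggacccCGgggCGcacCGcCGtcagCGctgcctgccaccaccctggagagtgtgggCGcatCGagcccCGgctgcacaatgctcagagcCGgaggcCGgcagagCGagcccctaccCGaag
Hoxb1, Eed+/+ peak, chr11:96227417-96227716: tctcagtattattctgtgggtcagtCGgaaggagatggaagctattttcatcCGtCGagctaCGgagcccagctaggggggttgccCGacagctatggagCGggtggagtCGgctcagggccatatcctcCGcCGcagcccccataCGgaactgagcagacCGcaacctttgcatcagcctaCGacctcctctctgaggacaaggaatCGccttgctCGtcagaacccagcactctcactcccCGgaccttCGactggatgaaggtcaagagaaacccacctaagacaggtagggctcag
The Eed-/- windows held 28, 33 and 31 CG dinucleotides at *Hoxb7*, *Hoxb6* and *Hoxb5*. The shown windows of sites without an Eed-/- peak held 38 at *Hoxb2* and 16 at *Hoxb1*. Among the windows of all 13 such sites, the counts ran from 9 (*Hoxb13*, middle peak) to 38 (*Hoxb2*). Only *Hoxb2* and *Hoxb9* (32) exceeded the lowest Eed-/- window, 28 at *Hoxb7*. The *Hoxb3* peak from 96192634 to 96195977 equalled it, and the others were below it. Most sites without an Eed-/- peak thus had fewer CG dinucleotides around the summit than any Eed-/- site, with *Hoxb2* the clearest exception. The difference was not tested.

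In Eed+/+ mESCs RING1B peaks overlapped all 10 genes of the cluster, whereas in Eed-/- mESCs peaks were called only at *Hoxb7*, *Hoxb6* and *Hoxb5* in its middle. Over the 96800 bp from the start of *Hoxb9* to the end of *Hoxb1*, 12 Eed+/+ peaks covered 55371 bp (57.2%) and 3 Eed-/- peaks covered 6173 bp (6.38%). Over the whole interval including *Hoxb13*, the 15 Eed+/+ peaks covered 66205 bp (34.5%) and the Eed-/- peaks 3.22%. An Eed-/- peak overlapped 2 of these 15, which is 13.3% (exact Clopper-Pearson 95% CI 1.66 to 40.5), against 53.1% of all Eed+/+ peaks. Among all Eed+/+ peaks at or above the lowest fold enrichment of the cluster, the share was 60.2%. The 3 Eed-/- peaks were all overlapped by an Eed+/+ peak, against 73.1% of all Eed-/- peaks. By nearest gene, 9 of the 10 genes had a peak in Eed+/+ and 3 in Eed-/-. Of the 9, 2 (*Hoxb6* and *Hoxb7*) also had an Eed-/- peak, against 61.5% of all genes with an Eed+/+ peak. *Hoxb5* was a nearest gene only in the Eed-/- list, because the Eed+/+ peak that covered it was assigned to *Hoxb6*. Peaks of 1 cluster neighbour each other and are not independent samples, so the 13.3% is a description of this locus.

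**Figure D1:**
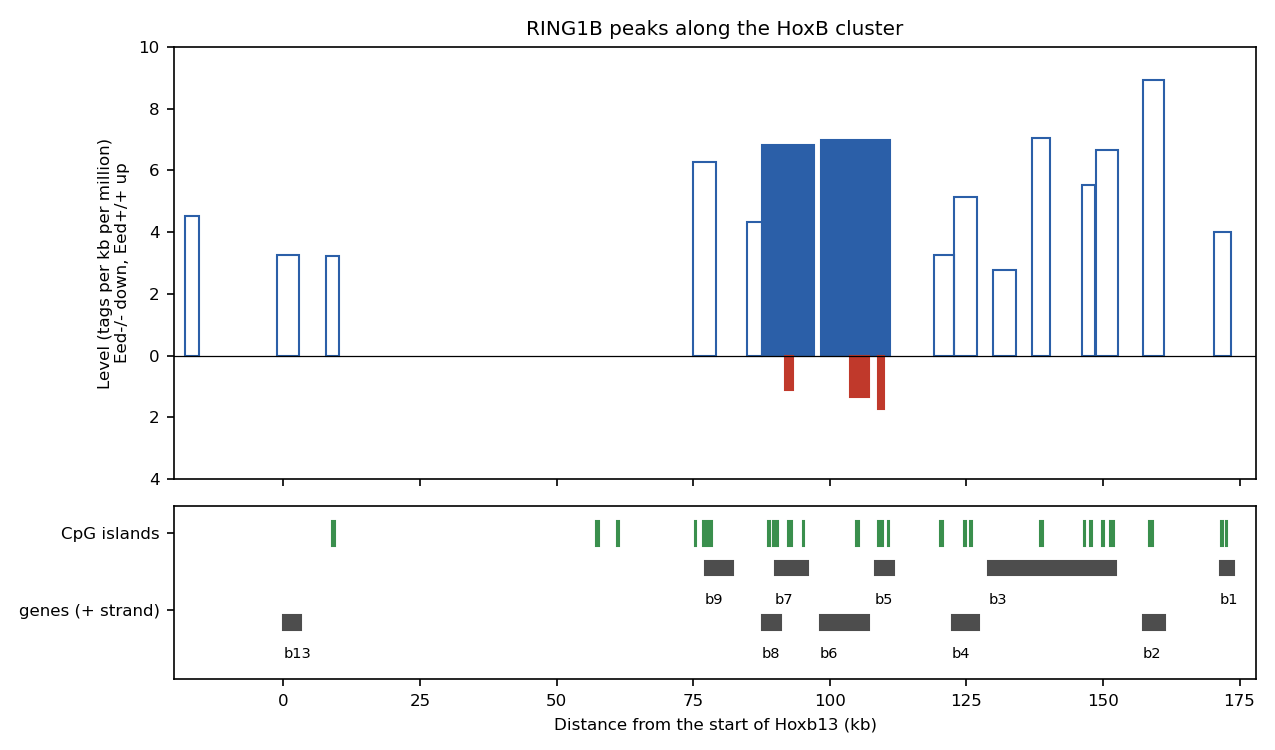
RING1B peaks of Eed+/+ (blue, upward) and Eed-/- (red, downward) mESCs along the HoxB cluster, with the distance from the start of Hoxb13 in kb on the x axis and the level in tags per kb per 1000000 mapped tags on the y axis. A box is filled where both genotypes have a peak and open where 1 has, the green bars are CpG islands and the grey bars are genes, and the 3 red boxes lie under the 2 filled blue boxes in the middle of the cluster.

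The centre of the cluster was held by 2 broad Eed+/+ domains, and both had Eed-/- peaks inside them. The first ran from 96143263 to 96152671 over *Hoxb8* and *Hoxb7*, which specify trunk segments. It was 9409 bp wide and held 1082 tags, with the highest fold enrichment of the cluster, 53.4, at a level of 6.84 (95% Poisson interval 6.44 to 7.26). Its summit lay in a coding exon of *Hoxb8* (gene from 96143219 to 96146639, + strand), while the Eed-/- peak inside it lay on *Hoxb7* (96145571 to 96151650, + strand). This Eed-/- peak, from 96147351 to 96148910, had 122 tags over 1560 bp and a level of 1.11 (0.923 to 1.33). MACS gave it a fold enrichment of 6.19 and an FDR of 1.87%. The summits of the pair were 3862 bp apart, so the strongest point of the Eed+/+ domain and the Eed-/- peak were different sites.

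The second domain, from 96154074 to 96166676, was the widest peak of the cluster (12603 bp) and had the most tags (1481), at 38.9-fold enrichment and a level of 6.99 (6.64 to 7.35). It spanned *Hoxb6* (96153790 to 96162883, + strand) and most of *Hoxb5* (96163909 to 96167434, + strand), both of which act in the trunk and forelimb region. Inside it the Eed-/- list had a *Hoxb6* peak from 96159303 to 96162755 with 328 tags over 3453 bp, enriched 5.62-fold at an FDR of 0.67%. Its level was 1.35 (1.21 to 1.5), and its summit lay 303 bp from the Eed+/+ summit, both in a coding exon of *Hoxb6*. A second Eed-/- peak, at *Hoxb5* from 96164440 to 96165599, had 140 tags over 1160 bp and a level of 1.72 (1.44 to 2.02). Its enrichment was 5.96-fold at an FDR of 1.32%. At *Hoxb6* the site of most tags was thus nearly the same in both genotypes, and the *Hoxb5* peak, the narrowest of the 3, had the highest Eed-/- level.

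In each pair the Eed-/- level was lower than the Eed+/+ level. The ratio of Eed-/- to Eed+/+ was 0.163 at *Hoxb7* (exact conditional binomial 95% interval 0.134 to 0.196, counting error only), 0.193 at *Hoxb6* (0.171 to 0.218) and 0.245 at *Hoxb5* (0.205 to 0.292), where the *Hoxb6* domain is the Eed+/+ partner of the last 2. Each ratio sets the level over a narrow Eed-/- peak against the Eed+/+ level over the whole domain. The Eed+/+ level within the narrow site is not in the lists, so these are not ratios at the same site. With 1 pair for each Eed+/+ peak, the median was 0.178 over the 2 domains and 0.225 over all 1247 pairs of the lists (quartiles 0.179 and 0.303), and 100% of those pairs had a lower Eed-/- level. The 0.178 became 0.0512 with Eed-/- tags spread over the Eed+/+ width and 0.744 without scaling for depth. Before scaling, the Eed-/- peaks had 78.2 (*Hoxb7*), 95 (*Hoxb6*) and 121 (*Hoxb5*) tags per kb, within the Eed+/+ range of 47.0 to 150 tags per kb. After scaling the ranges no longer met, with 1.11 to 1.72 in Eed-/- and 2.79 to 8.94 in Eed+/+. Each of the 3 Eed-/- peaks lay wholly inside its Eed+/+ peak, against 59.4% of overlapping Eed-/- peaks in the list, and they took up 16.6% (*Hoxb7*), 27.4% (*Hoxb6*) and 9.20% (*Hoxb5*) of its width. The 2 domains were at percentiles 98.4 and 99.5 of Eed+/+ width, so peaks of this width had ample room inside them, and the 59.4% is not a like comparison. The median width in the cluster was 3780 bp in Eed+/+ (2304 to 12603), against 2665 bp over the list, and 1560 bp in Eed-/- (1160 to 3453), against 2155 bp. At *HoxA*, *HoxC* and *HoxD* genes the Eed+/+ medians were 3963, 3128 and 3361 bp, also above that of the list. The Eed-/- medians there were 2276, 1301 and 2268 bp.

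**Figure D2:**
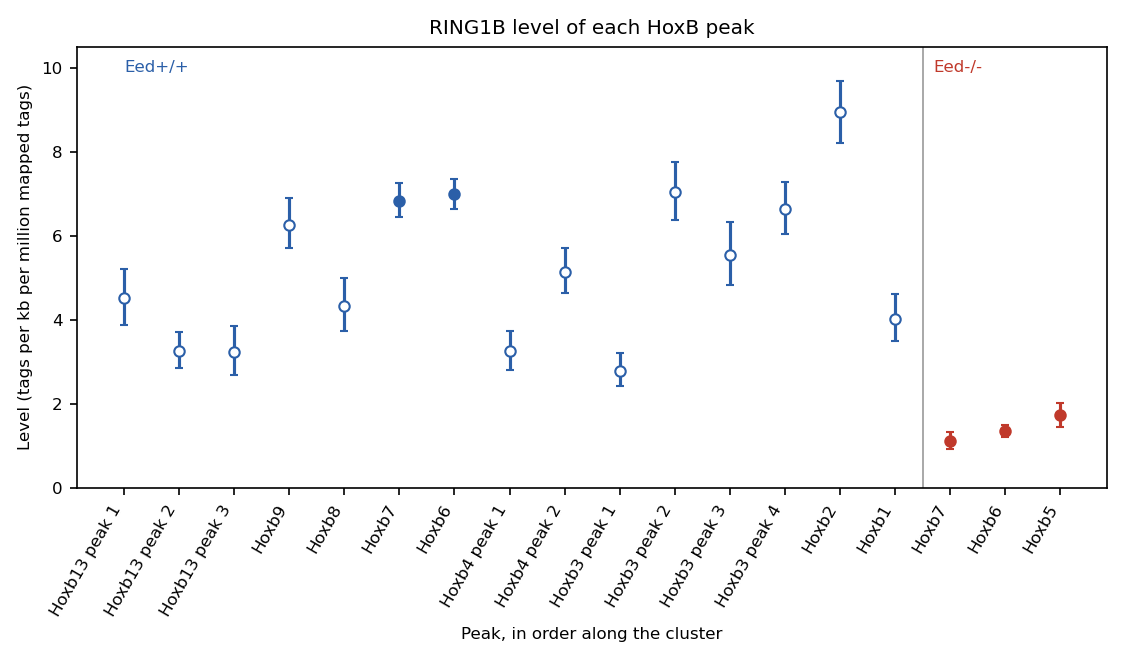
Level of each HoxB peak in tags per kb per 1000000 mapped tags (y axis), in order along the cluster (x axis), for Eed+/+ (blue) and Eed-/- (red) mESCs. Error bars are 95% Poisson intervals of the tag count, points are filled where the genotypes overlap, and the 3 Eed-/- points (1.11 to 1.72) lie below all 15 Eed+/+ points (2.79 to 8.94).

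At the anterior end, from *Hoxb4* to *Hoxb1*, 8 Eed+/+ peaks had no Eed-/- counterpart. *Hoxb2*, which acts in the hindbrain, lies from 96212946 to 96217003 on the + strand. Its peak from 96212997 to 96216776 had 568 tags and 31.4-fold enrichment. Its level was 8.94 (8.22 to 9.70), the highest of the cluster and above 90.9% of the Eed+/+ list. *Hoxb1* (96227066 to 96229570, + strand), which specifies a segment of the hindbrain, had a peak from 96226004 to 96229019 that covered 78% of the gene. It held 204 tags, enriched 19.4-fold, and its level was 4.02 (3.49 to 4.61). The intervals of these neighbours did not meet, so RING1B was lower over *Hoxb1* than over *Hoxb2* beyond counting error.

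*Hoxb3*, the longest gene of the cluster in the annotation (96184640 to 96207999, + strand) with 4 annotated start sites, had 4 Eed+/+ peaks. Their levels were 2.79 (96185481 to 96189718), 7.04 (96192634 to 96195977), 5.54 (96201849 to 96204220) and 6.65 (96204323 to 96208381). The fold enrichment was 15.6, 25.8, 31.0 and 40.1 in the same order. The lowest level of the cluster was thus at the upstream end of *Hoxb3* and the second highest inside the same gene. *Hoxb4* (96177998 to 96182952, + strand), known for its role in blood stem cells, had 2 peaks. The one over its upstream flank and its start in the GENCODE annotation, from 96174684 to 96178326, was enriched 20.0-fold at a level of 3.25. The other, over its coding region, from 96178417 to 96182655, was enriched 44.5-fold at a level of 5.15. This second peak covered the RefSeq start of *Hoxb4* that the deposited distance gives, 96180052. It also covered the start of *Mir10a*, a microRNA gene of the cluster.

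At the posterior end, *Hoxb9* was covered in part and *Hoxb8* nearly whole in Eed+/+ mESCs, and *Hoxb13* had 3 peaks across a gap. *Hoxb9* (96132771 to 96137909, + strand), which acts in the thoracic region, had a peak from 96130646 to 96134787 that covered 39.2% of the gene. It held 437 tags, enriched 36.5-fold, and the level was 6.27 (5.70 to 6.89). The peak assigned to *Hoxb8* lay upstream of it, from 96140552 to 96143202, with the lowest fold enrichment of the cluster, 11.5, and a level of 4.33 (3.74 to 4.99). It ended 60 bp before the *Hoxb7* domain, which covered the body of *Hoxb8*. *Hoxb13* (96055630 to 96058761, + strand), which acts in the tail bud and later in the prostate, is separated from the rest of the cluster, and no peak of either genotype lay in the 64886 bp between its last peak and that of *Hoxb9*. Its 3 Eed+/+ peaks had levels of 4.51 (96037704 to 96040131), 3.26 (96054482 to 96058458, over the gene) and 3.23 (96063456 to 96065759). The summits of the outer 2 lay in exons of the non-coding transcripts *Gm11535* and *Gm11538*, so only the middle one lay on *Hoxb13* itself.

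The order of the Eed+/+ levels did not follow position along the cluster. In rank order, *Hoxb2* stood alone at the top, and in 13 of the 14 steps between neighbours in rank the Poisson intervals met. The highest level was 3.20 times the lowest. Levels in the cluster were near those of the whole list, with a median of 5.15 against 4.80, while the fold enrichment was above the list's median of 16.2 at 11 of the 15 peaks (cluster median 25.8). The other Hox clusters were also above the list, with median fold enrichments of 25.1 (*HoxA*), 22 (*HoxC*) and 30.4 (*HoxD*). The 2 *HoxB* peaks that kept an Eed-/- call ranked 3 and 4 in level (6.99 and 6.84), and the *Hoxb7* domain had the highest fold enrichment (53.4). They were the 2 widest and had the most tags, and their widths exceeded those of 98.4% and 99.5% of Eed+/+ peaks. *Hoxb4* (second highest fold enrichment, 44.5), *Hoxb3* (40.1) and *Hoxb2* (highest level) had no Eed-/- peak. Over the whole list, overlapped Eed+/+ peaks had a higher median width than the others (2904 against 2462 bp). Their medians were also higher in tags (288 against 161) and in level (5.78 against 4.03).

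The absence of an Eed-/- peak leaves the level at the other 13 sites unmeasured, because the lists hold nothing below the threshold. Their distance to an Eed-/- peak ran from 4148 bp (*Hoxb8*) to 107219 bp (the most upstream *Hoxb13* peak). The smallest peak in the Eed-/- list had 101 tags. Spread over the width of the Eed+/+ peak, such a count would equal 0.0425 (*Hoxb2*) to 0.193 (most downstream *Hoxb13* peak) of the Eed+/+ level. On the same footing, all Eed-/- tags over the width of the domain, the ratio was 0.027 at the *Hoxb7* domain and 0.0755 at the *Hoxb6* domain. The value for 101 tags was above the first of these at 13 of the 13 sites and above the second at 8. At the 8 sites either proportion of the Eed+/+ tags would have come to under 101 tags. These full-width ratios count only tags in called Eed-/- peaks. The median ratio of levels, 0.178, was instead taken over the narrower Eed-/- peaks. That ratio was above the value for 101 tags at every site but the most downstream *Hoxb13* peak (0.193). Which ratio applies at the 13 sites, and why they had no peak, was not tested. The FDR threshold applied as well, and 2 of the 3 Eed-/- peaks had an FDR over 1%, so the number of Eed-/- peaks rests on that threshold. This was common in the list, where 436 of all 1810 Eed-/- peaks had an FDR of 1% or less (median 1.46%). Keeping peaks at an FDR up to 1% in both lists left 1 of 15 Eed+/+ peaks overlapped (15.4% over the list) and 1 of 1 Eed-/- peaks (85.8%), the *Hoxb6* pair. Keeping peaks of at least 200 tags gave 1 of 10 (48.3%) and 1 of 1 (66.5%), again at *Hoxb6*. Where each peak of a pair had to be covered over 50% of its width, 0 of 15 (45.0%) and 0 of 3 (58.3%) remained, since the domains were much wider than the peaks inside them.

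Eed+/+ peaks of the cluster held fewer CG dinucleotides at the median than RING1B peaks in general. The Eed+/+ peaks had a median of 3.49 CG per 100 bp (2.08 at the first *Hoxb3* peak to 5.05 at *Hoxb9*), against 5.01 over all Eed+/+ peaks. In Eed-/- the values were 5.90 (*Hoxb7*), 4.23 (*Hoxb6*) and 6.64 (*Hoxb5*), against a list median of 6.20. Within the domains, the part under an Eed-/- peak was richer in CG than the rest, with 5.90 against 3.36 per 100 bp in the *Hoxb7* domain and 4.83 against 2.72 in the *Hoxb6* domain. This held at 97.9% of the 861 overlapped Eed+/+ peaks of the list with at least 200 bp outside the Eed-/- peak, so it was the common arrangement. A CpG island lay under 11 of 15 Eed+/+ peaks of the cluster (95.1% of the list) and under 3 of 3 Eed-/- peaks (95.7%). The 4 Eed+/+ peaks without an island were the first 2 at *Hoxb13*, the *Hoxb8* peak and the first at *Hoxb3*. The summit itself was on an island in 10 of 15 (82.8% of the list) and 3 of 3 (85.6%).
Of 23 islands in the interval, 21 were overlapped by Eed+/+ peaks and 3 by Eed-/- peaks. Thus 14.3% of the islands under an Eed+/+ peak were also under a called Eed-/- peak, against 52.8% of islands in all Eed+/+ peaks. The longest island, 1740 bp at *Hoxb9*, was not among the 3, which were 772, 517 and 975 bp long at *Hoxb7*, *Hoxb6* and *Hoxb5*. Retinoic acid activates *HoxB* genes through receptors that bind direct repeats. A repeat of AGGTCA and AGGTCA, or of AGTTCA and AGGTCA, with NNNNN between, searched on both strands, was in 0 of the 18 peaks. Each form was in 0.0852% of all Eed+/+ peaks, and they were in 0.110% and 0.0552% of all Eed-/- peaks. These exact letters are only 2 forms of the element.

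**Figure D3:**
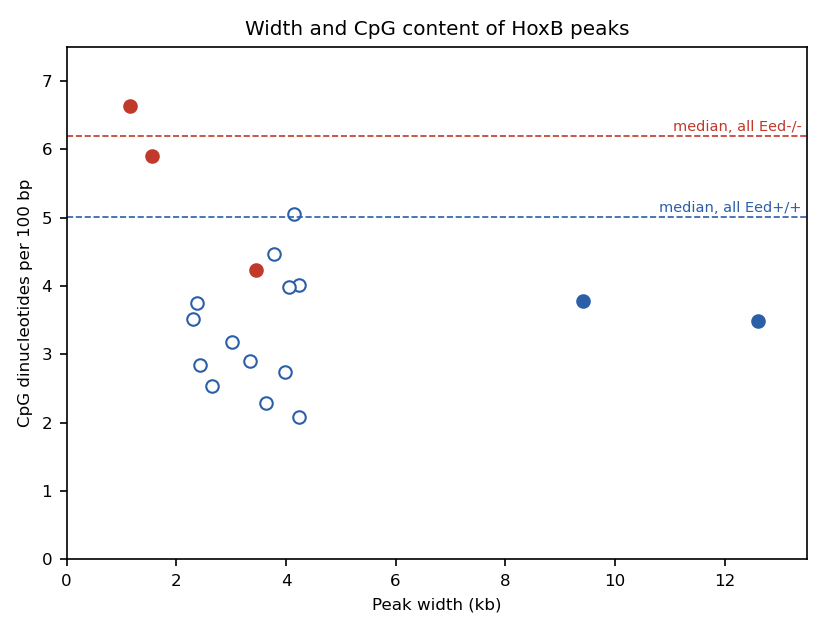
Width in kb (x axis) and CG dinucleotides per 100 bp (y axis) of the HoxB peaks in Eed+/+ (blue) and Eed-/- (red) mESCs, filled where a peak of the other genotype overlaps. Dashed lines mark the medians of all peaks of each list (5.01 and 6.20), and the 2 filled blue points are the widest peaks, at 9409 and 12603 bp.

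Start sites in peaks depended on the annotation. With the start sites of GENCODE, 9 of 10 genes had a start inside an Eed+/+ peak (all but *Hoxb2*, whose peak began just downstream) and 1, *Hoxb6*, inside an Eed-/- peak. With the RefSeq starts that the deposited distances give, the counts were 8 and 3. The same shares were not counted over all peaks of the lists, so whether these counts are particular to the cluster is not known. By the RefSeq starts, the *Hoxb7*, *Hoxb6* and *Hoxb5* starts all lay inside the Eed-/- peaks, whose centres were 171, 545 and 194 bp downstream of them. The RefSeq start of *Hoxb8* fell in the 60 bp between 2 Eed+/+ peaks.

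The other Hox clusters kept more of their peaks in number, with wide intervals. An Eed-/- peak overlapped 9 of 19 Eed+/+ peaks at *HoxA* genes (47.4%, 95% CI 24.4 to 71.1), 6 of 21 at *HoxC* genes (28.6%, 11.3 to 52.2) and 8 of 15 at *HoxD* genes (53.3%, 26.6 to 78.7). Each of these intervals overlaps that of *HoxB*, and the differences were not tested. The intervals treat neighbouring peaks of a cluster as independent, which they are not, so they do not measure a difference between clusters. Median levels of the called Eed-/- peaks were close, at 1.30 (*HoxA*), 1.35 (*HoxB*), 1.35 (*HoxC*) and 1.39 (*HoxD*). All were near the median of 1.32 over all 1810 Eed-/- peaks, and sites without a call do not enter them. The Eed-/- peaks covered 22165 bp at *HoxA* genes, 6173 bp at *HoxB* genes, 8987 bp at *HoxC* genes and 21385 bp at *HoxD* genes. In the same order, the Eed+/+ peaks covered 81203, 66205, 76002 and 56329 bp. Over the whole lists, Eed-/- peaks covered 4400377 bp and Eed+/+ peaks 7475199 bp.

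**Figure D4:**
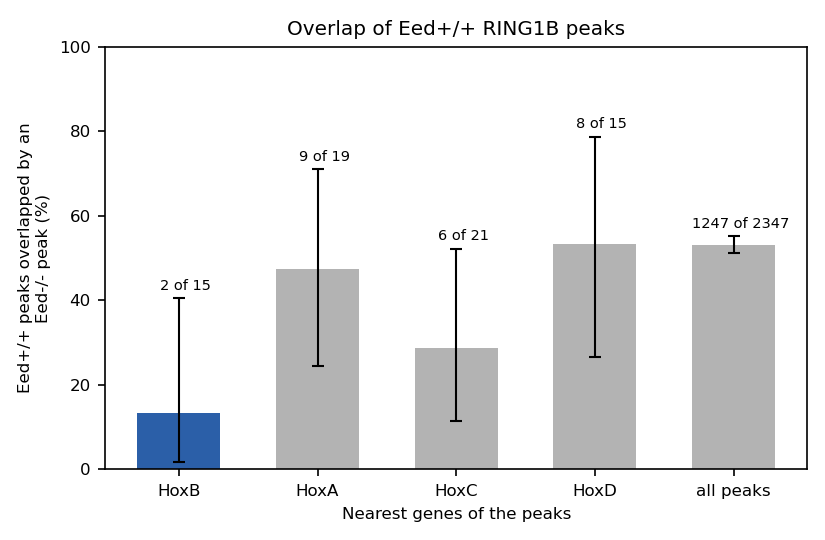
Share in percent of Eed+/+ RING1B peaks that an Eed-/- peak overlaps (y axis), for peaks nearest to genes of the 4 Hox clusters and for all peaks (x axis). Bars carry exact 95% Clopper-Pearson intervals, and HoxB (2 of 15) has the lowest of the plotted shares, with an interval that overlaps those of the other clusters. The intervals treat neighbouring peaks as independent, which they are not.

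Of genes that act with or on *HoxB*, 4 of 9 TALE homeodomain cofactors had an Eed+/+ peak (*Meis1*, *Meis2*, *Pbx3* and *Pknox2*) and 1, *Pknox2*, had an Eed-/- peak. The levels at *Pknox2* were 7.36 and 1.16. Of 8 regulators of Hox genes, 7 had an Eed+/+ peak and 4 also had an Eed-/- peak, against 61.5% of all genes with an Eed+/+ peak. At *Cdx2*, a caudal factor that activates trunk Hox genes, the levels were 11.2 and 1.61, and at *Egr2*, a hindbrain regulator of *Hoxb2*, they were 5.85 and 1.42. In the retinoic acid pathway 6 of 18 genes had an Eed+/+ peak, of which 5 also had an Eed-/- peak, and 1 more gene had an Eed-/- peak only. The same 61.5% stands beside the 5 of 6 in this pathway and the 1 of 4 among the TALE cofactors. What share of all genes had an Eed+/+ peak was not counted. At *Cyp26b1*, which degrades retinoic acid, the levels were 7.94 and 1.58, and at *Aldh1a2*, which makes it, 5.28 and 1.15.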

How the data were processed

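Binding of RING1B was described from 2 peak lists, 1 for each genotype. The authors mapped ChIP-seq tags to mm9 with bowtie, discarded tags with several positions, and called peaks with MACS. The lists hold no peak under 101 tags or with an FDR over 1.99%. The deposited lists give for each peak a raw tag count, a fold enrichment ratio, an FDR in percent, the summit and the nearest gene. Tool versions, and what served MACS as control, were not given in the sources used here. Flags of the authors' own overlaps were not used. The 3 input and 2 CBX7 samples were not analysed here.

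Peaks overlapped at 1 bp or more, and a pair was an Eed+/+ peak with its Eed-/- peak of longest overlap, or each Eed-/- peak with its Eed+/+ peak. Sequence was read from NCBIM37, which is mm9, and genes from GENCODE M1. A CpG island was a maximal segment scored 17 per CG and -1 per other base, at least 200 bp long, with at least 50% GC and an observed to expected CG ratio over 0.6. The text names every member and, of other lists, at most 4 genes with the highest fold enrichment. Some items are not reported here. The members and lists were chosen with earlier results of these data known. Overlap, island and interval code was tested on simulated data. Python 3.11.15, numpy 2.4.6, scipy 1.17.1, numba 0.67.0 and matplotlib 3.10.9 were used.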

Additional observations from a re-analysis of the deposited data

How the results depend on the processing

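No paired analysis was possible because each genotype has 1 peak list, and no sample could be left out for the same reason. The counts of overlapped peaks, 2 of 15 in Eed+/+ and 3 of 3 in Eed-/-, became 0 and 0 when an overlap had to span 50% of both peaks. They became 1 of 15 and 1 of 1 at an FDR limit of 1%, and 1 of 10 and 1 of 1 at a limit of 200 tags. The median ratio of levels over the 2 Eed+/+ domains, 0.178, was 0.130 by fold enrichment, 0.744 without scaling for depth and 0.0512 with Eed-/- tags spread over the Eed+/+ width. The median Eed+/+ width was 11006 bp over the 2 overlapped peaks alone. The 1 gene with a start inside an Eed-/- peak became 2 with a margin of 1 kb and 3 with RefSeq starts. Joining Eed+/+ peaks under 500 bp apart, chosen after seeing the data as were the RefSeq starts and the pairs by Eed-/- peak, left 2 overlapped of 12. The other alternatives stayed within the counting interval, the spread of widths or 1.5 times the count.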
